A study of Mus musculus with 3 samples.

Results

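KD9 is a mouse embryonic stem cell (ESC) line with a stable knockdown of the Usp17l genes, and its RNA-seq profile is set here against that of cells with the empty vector. The labels name 1 sample of KD9 and 1 of the control, so the comparison takes 2 of the 3 labelled samples of the experiment, and the third is a sister knockdown line, KD4. All genes of the table were taken, 32545 rows, of which 19950 had a mean TPM (transcript abundance scaled to a fixed total per library) of 0.5 or more and 12949 of 5 or more. The mean was taken over the control, KD4 and KD9.

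The cells of each sample were E3 ESCs, a line derived from C57BL/6 × 129S6 blastocysts, grown with serum and LIF on mouse embryonic fibroblast (MEF) feeders and collected at passage 7. The control carried the empty vector. KD9 was picked as a clone after transfection with an shRNA plasmid and puromycin selection, and the sources used here do not say that the control was cloned, so an effect of the shRNA and one of the clone cannot be told apart. Of 2 shRNAs against a sequence common to the Usp17l genes, the sources used here do not say which KD9 carries. The table gives 2 columns for KD9 against 1 labelled sample, and 1 control column was used. The study's legends call its TPM values from knockdown ESCs biological replicates, but the labels name no separate KD9 samples, so whether the columns are separate cultures is not known here. They were treated as repeat measurements of 1 labelled sample, no p-value is given, and with a single control column no difference from the control has a replicate check.

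Usp17l genes encode deubiquitinases, enzymes that take ubiquitin off other proteins, and they are transcribed at the 2-cell stage of the mouse embryo and in the rare ESCs that re-enter a 2-cell-like (2C) state. Cultures in serum and LIF are mixtures in which most cells express naive pluripotency factors and some drift towards a formative state or towards primitive endoderm. Nodal, a TGF-beta ligand made by the ESCs themselves, switches on its own feedback inhibitors Lefty1 and Lefty2. Feeder fibroblasts add collagens, chemokines and matrix proteases to the same RNA. In bulk RNA, fewer cells of a type and less RNA per cell cannot be told apart.

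The targeted genes were low in KD9. Usp17le (mm10, chromosome 7, 104768049 to 104777470) had 1.82 TPM in the control and 0.331 and 0.374 in the KD9 columns, 4.24-fold lower. Usp17la was at 0.661 against 0.248 and 0.0700, and Usp17lb at 1.12 against 0.421 and 0.238. Usp17lc (0.715 against 0.302 and 0) and Usp17ld (0.343 against 0.207 and 0) were listed at 0 in the second column, so their columns differ in size but not in direction. The 5 genes share sequence and only uniquely mapped reads were counted, so the split between them is uncertain.

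Markers of ESCs were abundant in each column. Pou5f1, a core pluripotency factor, had 698 TPM in the control and 686 and 693 in KD9, Sox2 was at 296 against 330 and 337, and Dppa5a at 2028 against 1981 and 2011. Fibroblast genes were measured in each sample, and the summed TPM of 29 fibroblast genes was 7975 in the control, 7168 and 7066 in KD9, and 3109 and 3099 in KD4. Within the list, 11 of 28 measured genes were above the control in both KD9 columns and 16 below in both, with Col1a1 at 1198 against 767 and 760, Thy1 at 242 against 160 and 165, and Prrx1 at 38.9 against 50.3 and 50.6. The fibroblast total thus differed little between KD9 and the control, while single fibroblast genes moved both ways.

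A gene is called higher or lower here if it was more than 2-fold above or below the control in both KD9 columns, on the scale log2(TPM + 0.1). At a mean TPM of 5 or more, 151 of 12949 genes (1.17%) were called higher and 177 (1.37%) lower, and 95.7% of the genes were within 2-fold in both columns. The median log2 fold change of all these genes was -0.06. Among 10374 protein-coding genes, 92 (0.887%) were called higher and 106 (1.02%) lower. At a mean TPM of 0.5 or more, 582 of 19950 genes (2.92%) were called higher and 766 (3.84%) lower, with the same median of -0.06. These shares, 2.92% and 3.84%, are the background for the list counts that follow, which use the filter of 0.5 unless another is named. The filter averages over control, KD4 and KD9, so a gene of low level can pass through the one group in which it is high, and counts of such genes lean in that direction.

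The KD9 columns agreed closely for genes of moderate and high level. The median difference between them was 0.40 on the log2 scale for genes of mean TPM 0.5 to 1, 0.22 from 1 to 5, 0.09 from 5 to 20, 0.05 from 20 to 100 and 0.04 at 100 or more. The 95th percentile fell from 3.28 to 0.22 over the same classes. Of the 328 called genes of mean TPM 5 or more, 3 had a change smaller than the difference between their own columns.

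**Figure D1:**
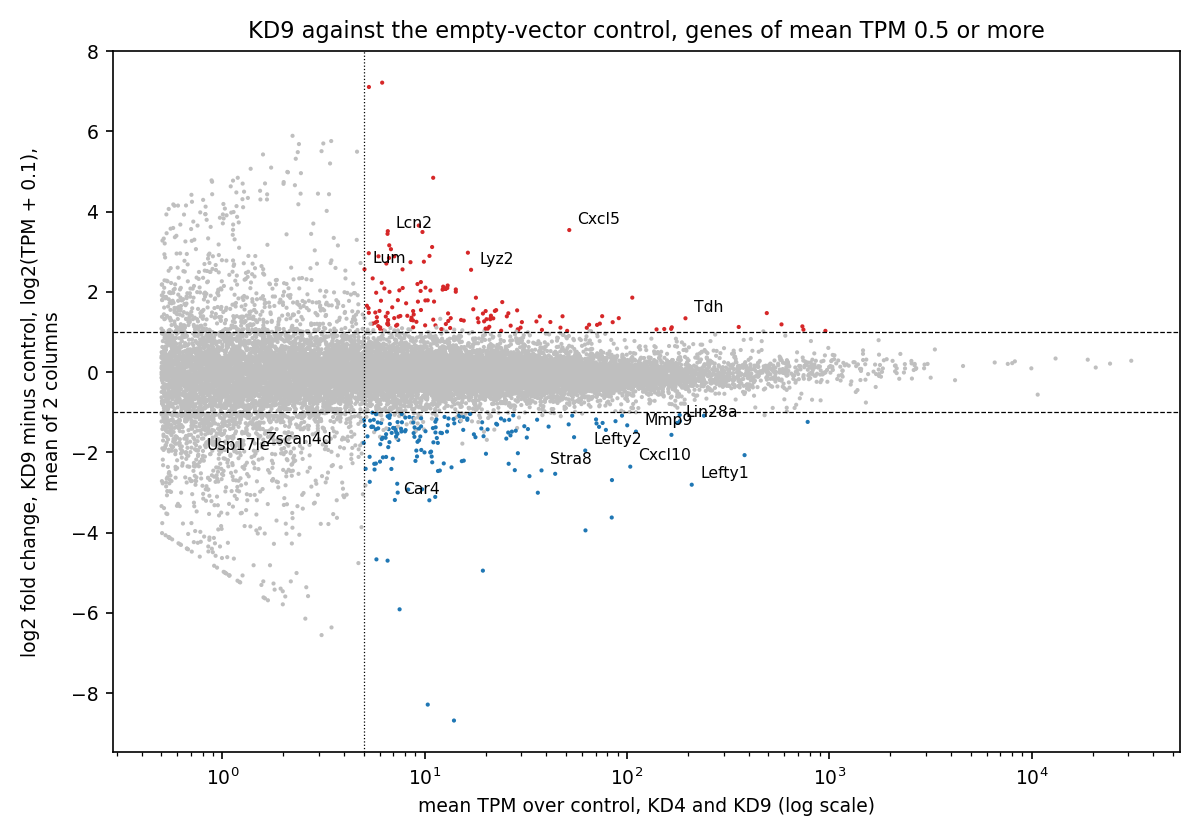
Each point is a gene of mean TPM 0.5 or more, with its mean TPM over control, KD4 and KD9 (x axis, log scale) and its log2 fold change in KD9 (y axis, mean of 2 columns). Red and blue mark the 151 genes called higher and the 177 called lower at a mean TPM of 5 or more (dotted line), dashed lines mark 2-fold, and the spread narrows towards high TPM.

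Genes of the acute phase and of innate defence were higher in KD9. Cxcl5, a chemokine that draws neutrophils (chromosome 5, 90759360 to 90761624), had 11.0 TPM in the control and 125 and 133 in KD9, 11.7-fold higher. Lcn2, an iron-binding defence protein, was at 1.45 against 16.9 and 16.8, which is 10.9-fold. In both genes the KD9 columns lay close together and far above the control.

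Of an acute phase and complement list of 34 symbols, chosen after the values were seen, 32 were in the table and 19 had a mean TPM of 0.5 or more. Of these, 12 were called higher and 0 lower, beside 2.92% and 3.84% of all genes. At a mean TPM of 5 or more, 8 of 11 were called higher and 0 lower, beside 1.17% and 1.37%. Since the list was chosen with the values known, these counts describe it only. The filter includes KD9 itself, so genes such as Hp, at 0.364 in the control against 3.69 and 2.14, entered through the line in which they are high. The median log2 fold change of the 19 genes was 1.11, beside -0.06 for all genes.

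Secreted acute phase proteins led the list. Cp, the copper-carrying ceruloplasmin, had 1.94 TPM in the control and 17.7 and 16.3 in KD9 (log2 fold change 3.07). Saa3, a serum amyloid A protein, was at 2.21 against 16.7 and 17.3 (2.89), and Lyz2, the lysozyme of myeloid cells, at 6.30 against 39.2 and 35.7 (2.55). Ptx3, a long pentraxin, was at 32.9 against 72.0 and 70.0 (1.11).

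Early complement components were higher as well. C3, the central complement protein, had 1.00 TPM in the control and 5.88 and 5.12 in KD9 (log2 fold change 2.34). The serine proteases that start the cascade followed, with Masp1 at 3.05 against 10.6 and 10.9 (1.78), C1s1 at 2.87 against 9.09 and 9.89 (1.69) and C1ra at 3.89 against 10.5 and 11.6 (1.48). Serping1, the inhibitor of these proteases, was not called, at 10.6 against 7.11 and 6.04. Cebpd, a transcription factor of the acute phase response, was called higher at 20.9 against 44.6 and 43.4 (1.07), while its relative Cebpb was at 180 against 178 and 207 (0.09).

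Among the 16 genes of the chemokine and cytokine list, 4 were called higher and 1 lower, beside 2.92% and 3.84% of all genes. The median log2 fold change was 0.40. Among the 15 of mean TPM 5 or more it was also 4 and 1, beside 1.17% and 1.37%. Saa3, the acute phase gene named above, is 1 of the 4 and is not a cytokine, so it is counted under both headings. Beside Cxcl5 and Saa3, Lif, the cytokine that holds ESCs in self-renewal, had 55.4 TPM in the control and 128 and 129 in KD9 (1.21), and Il6, the main inducer of acute phase genes in liver, was at 26.7 against 58.5 and 57.2 (1.11). The most abundant chemokines of the list were not called, Ccl2 at 759 against 889 and 848 and Ccl7 at 747 against 911 and 882, and Cxcl1 was at 141 against 209 and 204. Cxcl10, an interferon-induced chemokine, went the other way, at 253 against 53.5 and 45.5 (-2.35). Socs3, an inhibitor that LIF and IL-6 signals induce in many cells, was at 72.7 against 79.6 and 78.5 and was not called. The fibroblast total given above was 7975 in the control against 7168 and 7066 in KD9. Whether the inflammatory genes come from feeders or ESCs was not tested.

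**Figure D2:**
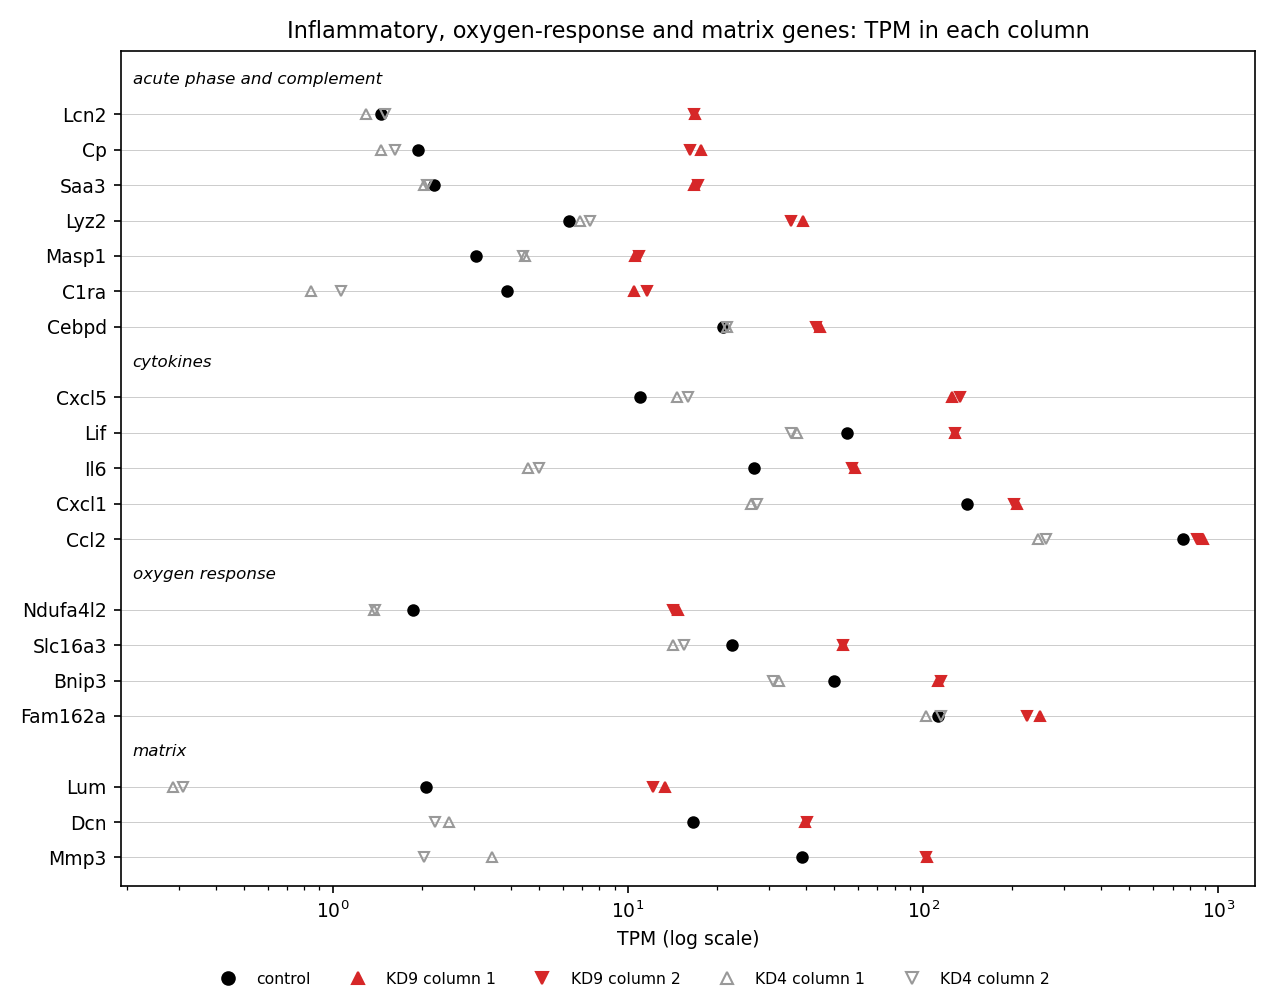
TPM (x axis, log scale) of inflammatory, oxygen-response and matrix genes in the control column (black), the 2 KD9 columns (red) and the 2 KD4 columns (grey, open). For Lcn2, Cp and Saa3 the KD4 columns lie near the control while both KD9 columns lie above 16, and for Lum, Dcn and Mmp3 the KD4 columns lie below the control and the KD9 columns above it.

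Promoter sequences are shown for 3 called inflammatory genes, because the letters that C/EBP factors and NF-kB are known to bind can be looked for in them. The sequences are from RefSeq on GRCm38.p6 and run from 250 bases before the annotated start to 50 bases into the gene, read 5′ to 3′ on the strand of the gene. TTNNGCAA, a C/EBP-like motif, was searched on both strands (its reverse is TTGCNNAA) and was found in 10.8% of 32851 promoters of this length. A kB-like motif (GGG, any 2 bases, then TTTCC) was searched in the same way and was found in 1.63%. Capitals mark the matches in Lcn2 (chr2:32387690-32387989, minus strand, C/EBP-like at base 35), Saa3 (chr7:46715627-46715926, minus strand, C/EBP-like at base 152) and Il6 (chr5:30012864-30013163, plus strand, C/EBP-like at base 123 and kB-like at base 207).
Lcn2: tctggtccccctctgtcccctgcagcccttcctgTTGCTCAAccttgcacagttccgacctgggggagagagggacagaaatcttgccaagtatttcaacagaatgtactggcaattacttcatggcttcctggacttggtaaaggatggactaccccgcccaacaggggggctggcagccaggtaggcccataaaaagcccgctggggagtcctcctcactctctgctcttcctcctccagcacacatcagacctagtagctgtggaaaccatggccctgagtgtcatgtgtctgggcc
Saa3: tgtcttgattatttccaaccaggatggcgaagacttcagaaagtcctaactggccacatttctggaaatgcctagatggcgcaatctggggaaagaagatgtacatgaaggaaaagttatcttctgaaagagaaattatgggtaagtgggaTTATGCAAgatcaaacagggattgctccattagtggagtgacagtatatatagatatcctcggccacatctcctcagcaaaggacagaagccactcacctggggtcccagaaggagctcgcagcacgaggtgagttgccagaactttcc
Il6: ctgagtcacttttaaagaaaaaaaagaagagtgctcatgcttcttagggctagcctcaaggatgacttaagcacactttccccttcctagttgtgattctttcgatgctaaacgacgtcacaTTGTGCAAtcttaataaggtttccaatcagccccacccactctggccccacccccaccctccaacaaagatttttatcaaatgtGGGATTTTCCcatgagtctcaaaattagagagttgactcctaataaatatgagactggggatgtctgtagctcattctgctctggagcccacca

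Of the 12 called genes of the acute phase list, 9 had a promoter in the RefSeq table, and 7 of the 9 held the C/EBP-like motif and 1 the kB-like motif. The genes were selected by their values and the motifs were chosen after these were seen, so nothing is read from these counts. A match is a stretch of letters, not a measured binding site.

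Some genes of the low-oxygen response were higher in KD9. Ndufa4l2, a mitochondrial protein that HIF-1 induces, had 1.87 TPM in the control and 14.8 and 14.2 in KD9 (log2 fold change 2.89). Slc16a3, a lactate exporter, was at 22.5 against 53.5 and 53.5 (1.25), Bnip3, a mitophagy receptor, at 49.9 against 112 and 115 (1.18), and Fam162a at 112 against 249 and 226 (1.08). Of a list of 19 further hypoxia-inducible genes, chosen after the values were seen, Ndufa4l2, Slc16a3 and Fam162a made up the 3 called higher, beside 2.92% of all genes. In both columns 15 of the 19 were above the control, with a median log2 fold change of 0.54.

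The glycolysis and hypoxia list moved by less. Of its 24 genes, Bnip3 was the single one called, beside 2.92% higher and 3.84% lower of all genes, and nothing is read from that count. In both columns 19 were above the control, and the median log2 fold change was 0.23 beside -0.06 for all genes. Tpi1, a glycolytic enzyme, was at 234.9 TPM against 342 and 326, and Ldha, which makes lactate, at 349 against 459 and 448. Slc2a1, the glucose transporter that hypoxia induces, was at 144 against 148 and 150, Vegfa, the angiogenic factor, at 199.8 against 231 and 223, and Car9, a carbonic anhydrase and HIF target, at 1.90 against 1.89 and 2.30. The classical HIF targets were therefore not called together.

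The promoter of Bnip3 (GRCm38.p6, chr7:138909457-138909756, minus strand) holds the letters ACGTG of the hypoxia response element, which were found on one or the other strand in 19.6% of the 32851 promoters. All 3 of the 4 called hypoxia genes that had a promoter in the table held it. These genes were selected by their values, so nothing is read from that count. A match is a stretch of letters, not a measured binding site. In Bnip3 the match on each strand overlaps the other, as CACGTG in capitals from base 143.
Bnip3: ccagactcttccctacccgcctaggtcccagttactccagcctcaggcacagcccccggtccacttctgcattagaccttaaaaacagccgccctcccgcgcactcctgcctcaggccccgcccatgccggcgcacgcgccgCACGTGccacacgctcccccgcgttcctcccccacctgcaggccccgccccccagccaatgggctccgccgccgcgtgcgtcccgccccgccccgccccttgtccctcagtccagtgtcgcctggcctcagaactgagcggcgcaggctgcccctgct

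Matrix genes of fibroblasts split into higher and lower members. Lum, a collagen-binding proteoglycan, had 2.07 TPM in the control and 13.4 and 12.2 in KD9 (log2 fold change 2.57), and Dcn, a related proteoglycan, was at 16.6 against 39.7 and 40.4 (1.27). Mmp3, a matrix protease, was at 38.9 against 103 and 102 (1.39), whereas Mmp9 was at 234 against 85.1 and 82.5 (-1.48) and Mmp10 at 55.1 against 20.01 and 18.7 (-1.50). Of 8 small leucine-rich proteoglycans, 2 were called higher and 0 lower, and of 16 metalloproteases and inhibitors 2 and 2. The shares of all genes were 2.92% and 3.84%. The median log2 fold changes of these lists were 0.02 and 0.02.

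Collagens and contractile genes lay below the control. Of 21 collagen genes, 17 were below it in both columns, with a median log2 fold change of -0.56, while 3 were called lower and 0 higher, beside 3.84% and 2.92% of all genes. Col15a1, a basement membrane collagen, was at 12.8 TPM against 1.36 and 1.58 (-3.04), and Col4a1 at 313 against 148 and 150 (-1.07). All 13 contractile genes were below the control in both columns with a median of -0.55, and 1 of them, Myh11, was called lower. Tagln, an actin-binding protein of smooth muscle and myofibroblasts, was at 1042 against 569 and 554, and Acta2, smooth muscle actin, at 1268 against 790 and 769. The fibroblast list itself, with 2 genes called higher and 0 lower of 28, had a median of -0.18.

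Further matrix and surface genes called lower were Itga11, a collagen receptor of fibroblasts, at 62.1 TPM against 12.4 and 13.0 (log2 fold change -2.28), Lrrc15, a membrane protein of activated fibroblasts, at 66.5 against 15.9 and 16.8 (-2.02), and Tfpi2, a secreted protease inhibitor, at 68.9 against 13.4 and 11.9 (-2.44). The lysyl oxidases Loxl2, at 177 against 86.3 and 80.7, and Loxl3, at 95.7 against 46.9 and 43.4, which cross-link collagen, were also called lower. These genes and Lum, Dcn and Mmp3 moved in opposite directions beside a nearly level fibroblast total, whose part in them was not tested.

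A cluster of UDP-glucuronosyltransferases, enzymes that conjugate bilirubin, steroids and drugs, was higher in KD9. The 9 called Ugt1a genes lie on chromosome 1 between 88055388 and 88220002 and had log2 fold changes from 2.03 for Ugt1a7c to 2.10 for Ugt1a9. Ugt1a1, which conjugates bilirubin, had 5.65 TPM in the control and 24.96 and 23.6 in KD9. In the GENCODE annotation these genes have their own first exons and share the exons that follow, so they count as 1 signal. Ahr, the dioxin receptor, which can induce this locus, was called higher at 4.38 against 11.0 and 10.8.

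H2-Q1, H2-Q2 and Gm11127, MHC class I genes named after their values were seen, were called higher. H2-Q1 had 6.10 TPM in the control and 20.9 and 21.8 in KD9 (log2 fold change 1.79), H2-Q2 was at 11.4 against 33.7 and 34.5 (1.57), and Gm11127 at 19.4 against 57.8 and 55.3 (1.54). In the MHC class I list as a whole, 0 of 11 genes were called, beside 2.92% higher and 3.84% lower of all genes. The median log2 fold change was 0.00, with H2-K1 at 172 against 210 and 204, H2-D1 at 318 against 285 and 292 and B2m, their light chain, at 1615 against 2265 and 2174. MHC class I genes resemble each other in sequence, so the split of reads among them is uncertain.

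Single genes with large changes also included signalling and transport genes. Wnt7b, a Wnt ligand, was at 1.75 TPM against 6.26 and 6.40 (log2 fold change 1.80), Nkx6-3, a homeobox factor, at 1.09 against 7.39 and 8.35 (2.74), and Slc7a2, a carrier of arginine and lysine, at 3.71 against 16.9 and 15.6 (2.10). Igfbp4, which binds insulin-like growth factors, was called higher at 14.8 against 41.6 and 40.6, whereas Igfbp2, at 130 against 48.6 and 52.8, and Igfbp5, at 58.2 against 21.1 and 20.4, were called lower. The carbonic anhydrases Car4 (17.5 against 1.92 and 1.75, -3.19) and Car2 (24.7 against 4.99 and 4.41, -2.37) were among the most reduced protein-coding genes.

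Nodal target genes were lower in KD9 while Nodal itself was near the control. Lefty1 (chromosome 1, 180935022 to 180938400) had 471 TPM in the control and 70.2 and 64.5 in KD9, 6.98-fold lower and the largest fall among the 6 most abundant genes called lower. Its neighbour Lefty2, a second Nodal antagonist, was at 120 against 31.6 and 30.5, 3.87-fold lower. In both genes the KD9 columns lay close together, well below the control.

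The ligand, its co-receptor and its receptor were not called. Nodal was at 61.3 TPM against 56.6 and 59.1 (log2 fold change -0.08), Tdgf1, the co-receptor Cripto, at 488 against 483 and 460 (-0.05), and Acvr2b, an activin receptor, at 8.16 against 7.18 and 7.20. Inhba, a subunit of activin A, was at 171 against 91.8 and 93.4 (-0.89), and Skil, a SMAD-binding target of the pathway, at 49.6 against 28.3 and 27.8 (-0.82). On the BMP side Bmp4 was called higher, at 7.72 against 20.2 and 19.3 (1.34), but the BMP targets Id1, at 86.0 against 68.1 and 68.5, and Id3, at 162 against 131 and 129, were not. Over the 19 genes of the Nodal and BMP list, 3 were called lower and 1 higher, beside 3.84% and 2.92% of all genes. Their median was -0.20.

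The naive pluripotency genes lay mostly above the control. Of 31 genes, 25 were above it in both columns and 6 below in both, and the median log2 fold change was 0.44 beside -0.06 for all genes. All 31 had a mean TPM of 5 or more, and 3 were called higher and 0 lower, beside 1.17% and 1.37% of all genes. The called genes were Prdm14, a repressor of the FGF signal and of DNA methylation genes, at 6.58 TPM against 16.5 and 17.2 (1.35), Tdh, the threonine dehydrogenase of mouse ESCs, at 101 against 264 and 249 (1.34), and Bmp4. Tfcp2l1, at 40.7 against 75.9 and 75.4 (0.89), and Zfp42, at 221 against 380 and 394 (0.80), were just short of 2-fold. Gbx2, at 32.8 against 26.7 and 26.1, and Lifr, the LIF receptor, at 12.1 against 8.84 and 10.4, lay below the control.

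Core pluripotency genes had a median log2 fold change of -0.05. Of 15 genes, 1 was called lower and 0 higher, beside 3.84% and 2.92% of all genes, and nothing is read from that count. The called gene was Lin28a, a repressor of let-7 miRNA maturation that is high in primed cells, at 267 TPM against 111 and 112 (-1.26). Nanog was at 222 against 337 and 335 (0.60), and L1td1, an RNA-binding protein, at 381 against 266 and 272 (-0.50).

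Genes of the formative state were called in both directions. Of 20 formative and primed genes, 7 were called lower and 1 higher, beside 3.84% and 2.92% of all genes, with a median of -0.36. Among the 13 of mean TPM 5 or more it was 2 and 1, beside 1.37% and 1.17%. Of the 20, 2 were under 0.5 in KD9 and not in the control, Fgf5 among them. The count at 0.5 therefore leans towards lower. Fgf5, the marker of the epiblast after implantation, was at 1.48 TPM against 0.164 and 0.260 (log2 fold change -2.36), Sox3 at 8.59 against 1.43 and 2.03 (-2.27), Pou3f1 at 17.4 against 5.04 and 5.56 (-1.70) and Zic2 at 29.2 against 10.4 and 11.2 (-1.42). Foxd3 was called higher, at 8.14 against 18.9 and 20.003 (1.25). Otx2, a driver of the formative state, was at 1.59 against 3.37 and 2.58 and was not called. Dnmt3a, at 12.2 against 5.79 and 6.07, and Dnmt3b, at 60.2 against 37.0 and 36.3, the de novo DNA methyltransferases, lay below the control.

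Of 11 primitive streak and neural genes, 2 were called lower and 0 higher, beside 3.84% and 2.92% of all genes, with a median of -0.29. Sox1, the earliest neural marker, was at 11.3 TPM against 2.08 and 2.60 (log2 fold change -2.23), and Sox11 at 14.5 against 6.52 and 6.48 (-1.15). The streak factor Eomes was at 1.85 against 1.80 and 2.73, with columns on either side of the control. Zic5, Prtg and Insm1, genes of the neural tube or of neurons outside the list, were called lower at 17.7 against 6.17 and 6.10, 21.1 against 4.95 and 5.47, and 16.4 against 3.34 and 4.23.

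**Figure D3:**
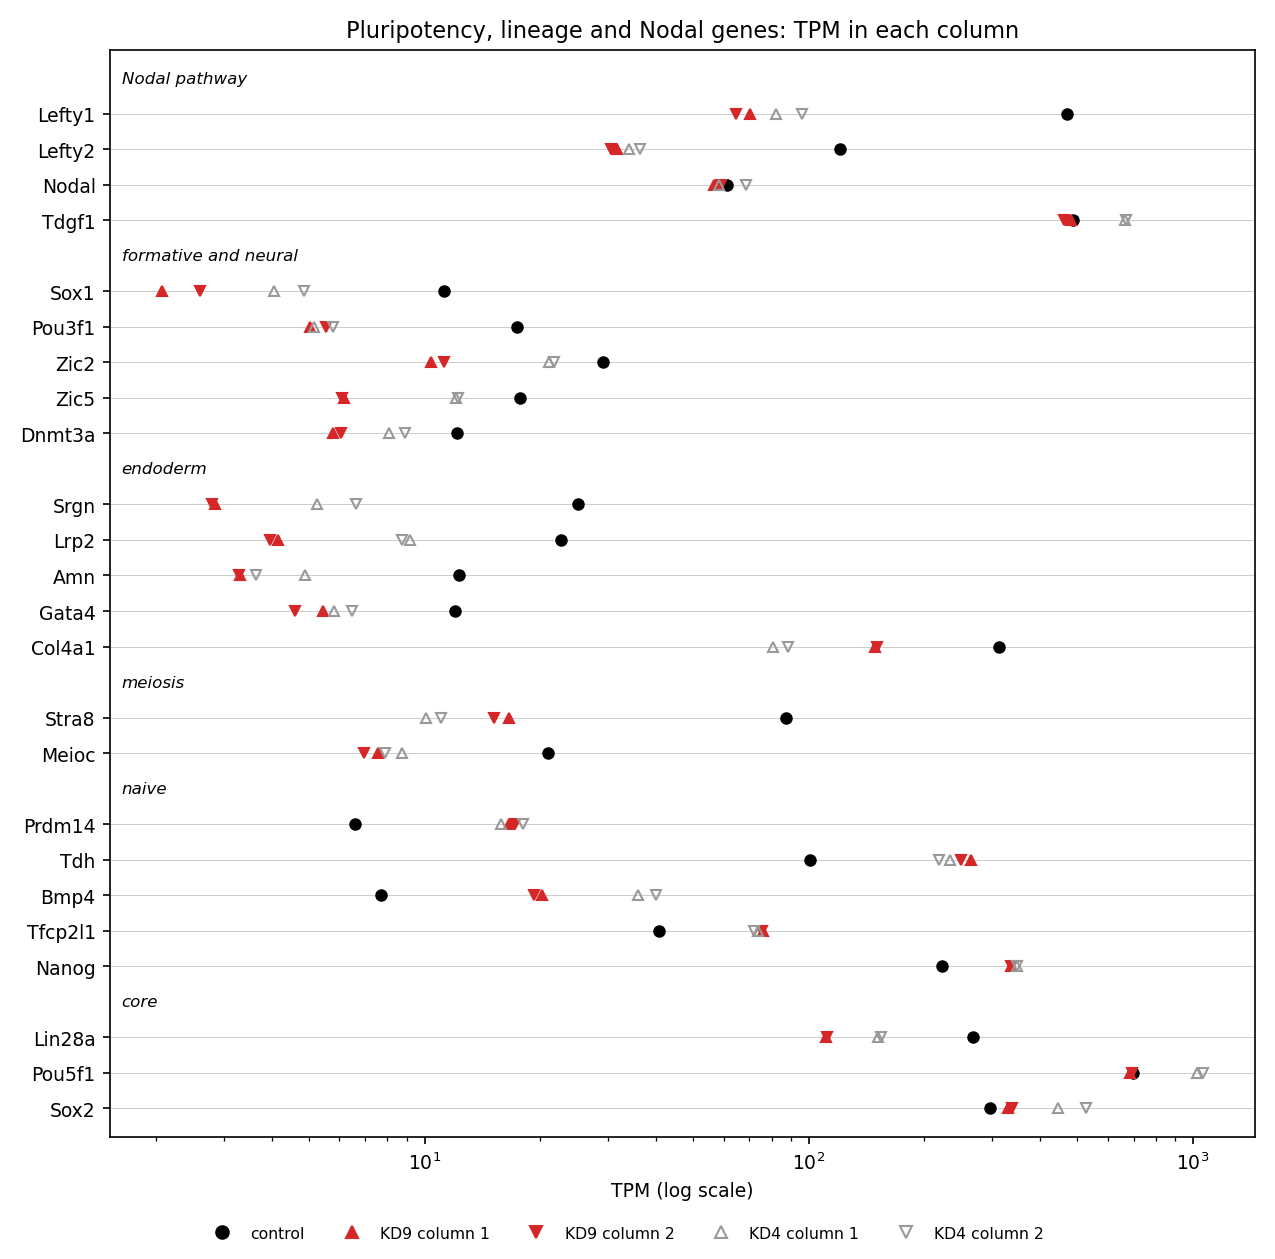
TPM (x axis, log scale) of Nodal pathway, formative and neural, endoderm, meiotic, naive and core pluripotency genes, with the control in black, KD9 in red and KD4 in grey. Lefty1 and Lefty2 sit far left of the control in both lines while Nodal and Tdgf1 sit beside it, and Prdm14, Tdh and Bmp4 sit to its right.

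Many genes of primitive and visceral endoderm were lower in KD9. Of the 28 genes of the list, 23 were below the control in both columns and 4 above. Of the 15 of mean TPM 5 or more, 6 were called lower and 0 higher, beside 1.37% and 1.17% of all genes, with a median log2 fold change of -0.81. At 0.5 or more it was 12 and 0 of 23 with a median of -1.07, beside 3.84% and 2.92%, but 5 of these 23, Sox17 and Foxa2 among them, were under 0.5 in KD9 and not in the control, so they entered through the control and the count leans towards lower. The endocytic receptor genes were among the most reduced: Cubn was at 8.05 TPM against 0.479 and 0.504 (-3.78), Amn, its partner, at 12.3 against 3.30 and 3.28 (-1.87), and Lrp2, megalin, at 22.7 against 4.17 and 3.96 (-2.45). Srgn, a proteoglycan core protein, was at 25.1 against 2.85 and 2.79 (-3.11).

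The transcription factors of the lineage were low in the control already. Gata4 was at 12.01 TPM against 5.43 and 4.60 (log2 fold change -1.25), Sox7 at 6.18 against 1.62 and 1.66 (-1.85), Sox17 at 1.37 against 0.293 and 0.136 (-2.27) and Foxa2 at 1.60 against 0.173 and 0.196 (-2.58). Gata6, the earliest of them, was at 4.24 against 2.98 and 3.50 (-0.38) and was not called. Of the basement membrane genes, Lama1 was called lower at 33.2 against 14.3 and 12.9 (-1.29), while Lamb1, at 152 against 114 and 114, and Lamc1, at 229 against 173 and 170, were not. Apoe, at 463 against 801 and 787, and Thbd, at 103 against 161 and 159, which are on the list but are made by other cells too, lay above the control.

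Stra8, the retinoic acid target that opens meiosis, had 87.0 TPM in the control and 16.6 and 15.2 in KD9, 5.46-fold lower. Meioc, which keeps germ cells in meiotic prophase, was at 20.97 against 7.55 and 6.97 (log2 fold change -1.52). The remaining germline genes were not called: of 26, 2 were called lower and 0 higher, beside 3.84% and 2.92% of all genes. Among those not called, Ddx4 was at 21.2 against 19.13 and 19.2 and Sycp3 at 29.8 against 30.1 and 34.0. Crabp2, which carries retinoic acid to the nucleus, was called higher, at 11.4 against 24.4 and 24.9.

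Of 29 imprinted genes, 4 were called lower and 0 higher, beside 3.84% and 2.92% of all genes, with a median log2 fold change of -0.19. Nothing is read from the 0, since few calls would fall in a list of this size at those shares. Cdkn1c, a cell cycle inhibitor, was at 46.0 TPM against 15.0 and 15.8 (-1.58), Dlk1, a Notch-like membrane protein, at 22.9 against 8.21 and 7.86 (-1.50), Nnat, at 18.7 against 7.19 and 7.12 (-1.37), and Plagl1, a zinc finger factor, at 12.6 against 5.38 and 4.85 (-1.29). H19 went up by less than 2-fold, from 94.5 to 164 and 160, and Mir675, the miRNA gene inside it, was called at 256 against 554 and 567 (1.13). Reads of the host and of the miRNA gene cannot be told apart in a library of fragmented mRNA.

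Interferon-stimulated genes were scattered around a median log2 fold change of -0.30. Of 24 genes, 2 were called lower and 0 higher, beside 3.84% and 2.92% of all genes. The called genes were Ifit2, at 37.3 TPM against 11.5 and 12.6 (-1.62), and Rsad2, an antiviral enzyme, at 39.9 against 15.6 and 14.5 (-1.40). Isg15 was at 772 against 676 and 702, and Ifit3 at 231 against 239 and 237. In KD4, set against the same control column, the median of the list was -2.63. The share of all genes called in KD4 is not given here, so no count of calls is given for that line.

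The 2C genes were low in the control and lower in KD9. All 6 Zscan4 genes were called lower, beside 3.84% of all genes, with a median log2 fold change of -2.17. Of these, 4 were under a TPM of 0.5 in KD9 and passed the filter through the control, so the count is a description only. Zscan4d was at 3.39 TPM against 0.869 and 0.737. Of 23 other 2C genes in the table, 19 were below the control in both columns and 1, Pramef12, above, at 3.18 against 7.48 and 6.58. A mean TPM of 0.5 was reached by 10 of them, of which 7 were called lower and Pramef12 higher, beside 3.84% and 2.92% of all genes. Since the control is part of that mean, the count leans towards lower and is given as a description only. Gm5662 was at 2.97 against 0.581 and 0.505 and Pramef25 at 1.33 against 0.146 and 0.110. None of the Zscan4 genes reached a mean TPM of 5, and their similar sequences make the split between them uncertain.

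At a mean TPM of 0.5 or more, 2.92% of all genes were called higher and 3.84% lower. Few calls would fall in a short list at those shares, so nothing is read from an absence of calls. Several lists had no called gene in either direction at this filter. These were Polycomb and H2A ubiquitination (28 genes, median log2 fold change -0.03), the proteasome (31, -0.07), DNA methylation (11, -0.18), FGF-ERK (17, -0.09), p53 targets (18, 0.17), cholesterol synthesis (24, -0.26), trophectoderm (14, -0.12), MHC class I (11, 0.00), housekeeping genes (14, -0.14), mitochondrially encoded genes (13, 0.27), Y-linked genes (4, -0.50) and X inactivation genes (3, 0.01). Of the rest, the integrated stress response (20 genes, -0.17) and the immediate early genes (18, 0.07) each had 1 gene called lower, Atf3, at 90.4 TPM against 34.4 and 39.1. The antioxidant and metallothionein genes (15, 0.01) had 1 called lower, and Wnt genes (20, -0.27) had 4 called lower and 1 higher. At a mean TPM of 5 or more, 0 of 13 antioxidant and metallothionein genes were called. Of 8 Wnt genes at that filter, 0 were called lower and 1 higher. Dkk1, a secreted Wnt inhibitor, was the most reduced of the Wnt genes, at 1.89 against 0.169 and 0.153. It was under 0.5 in KD9 and not in the control, so the Wnt count at 0.5 leans towards lower.

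Genes for Polycomb and H2A ubiquitination lay near the control. Epop, a Polycomb partner in ESCs, was at 199 TPM against 247 and 248, Eed, a core subunit of the complex that methylates histone H3, at 99.2 against 99.8 and 99.8, and Usp7, another deubiquitinase, at 120 against 108 and 106.

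**Figure D4:**
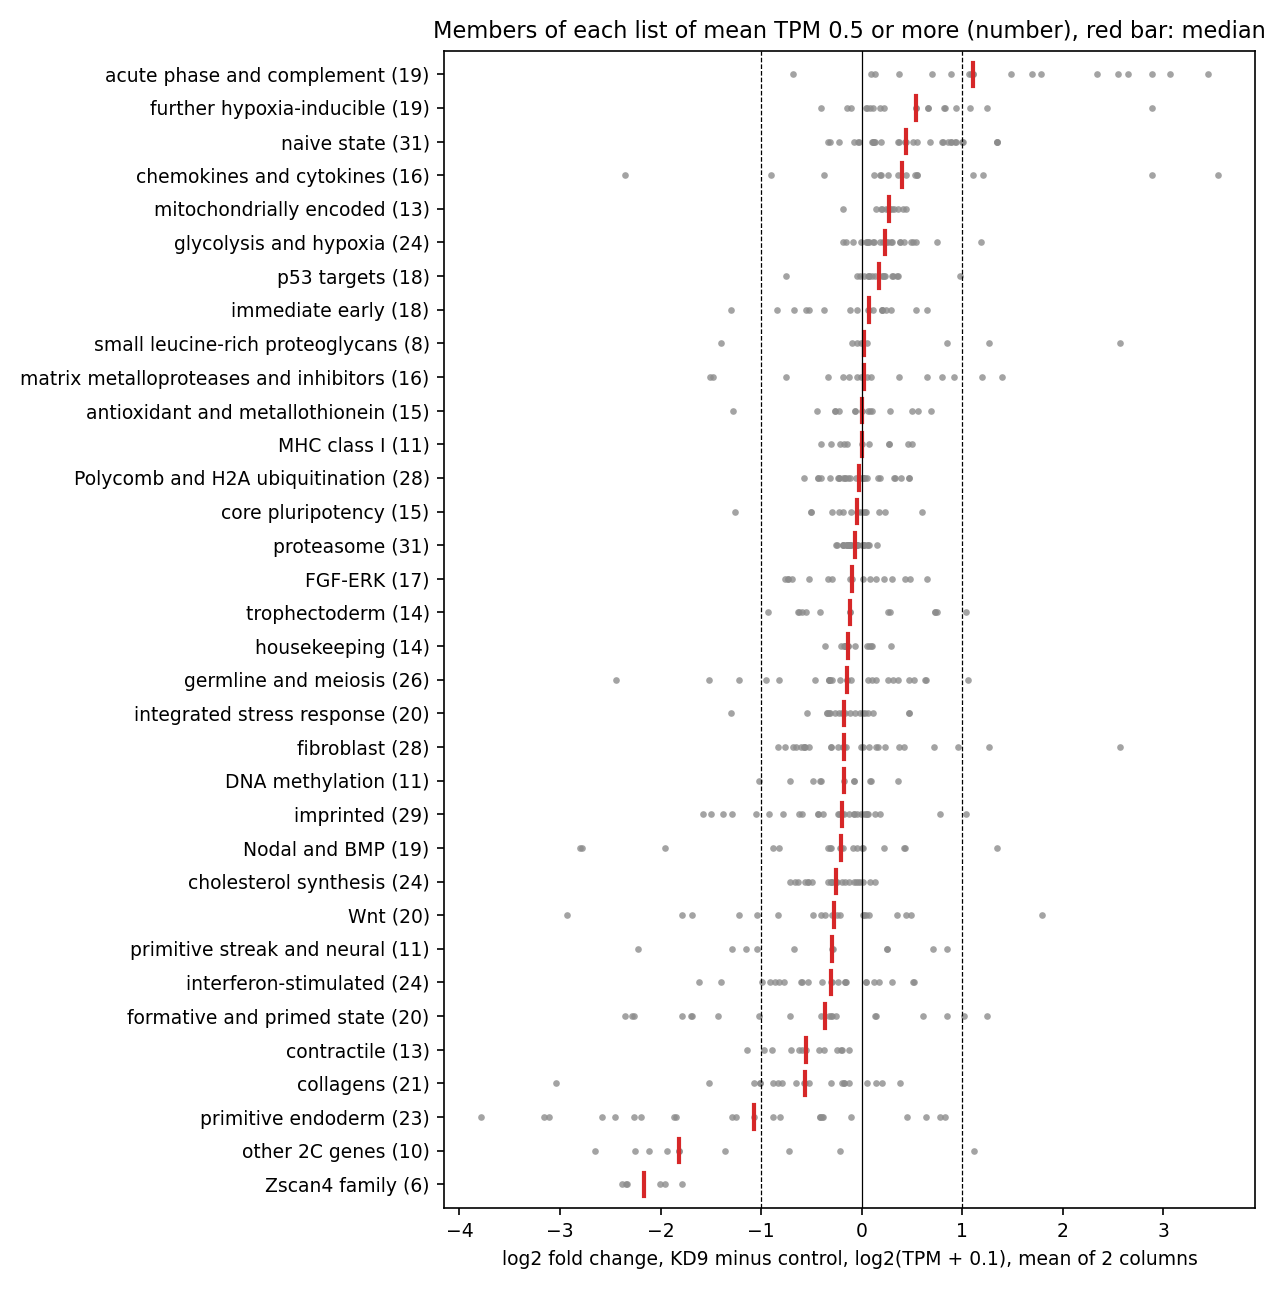
Each grey point is a member of the list named at left (number of members of mean TPM 0.5 or more in parentheses), placed by its log2 fold change in KD9 (x axis, mean of 2 columns), and the red bar is the list median. Medians run from -2.17 for the Zscan4 family to 1.11 for acute phase and complement, most lists straddle 0, and the proteasome genes lie within 2-fold (dashed lines).

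Several classes of non-coding and pseudogene entries took a larger share of calls than protein-coding genes. At a mean TPM of 5 or more, 1.91% of protein-coding genes were called in either direction, against 11.0% of 344 miRNA genes, 5.37% of 559 processed pseudogenes and 3.79% of 211 snoRNA genes. Other classes did not: antisense genes (2.30% of 653) and processed transcripts (2.25% of 178) were near the protein-coding share. Entries of the class TEC (0.893% of 112) were below it. The miRNA, pseudogene and snoRNA entries are short or resemble expressed genes, and poly-A selected libraries measure most of them poorly. The entries at the extremes of the table were of this kind. Gm8815, a pseudogene in the MHC region, was listed at 0 in the control and at a TPM of 16.2 and 13.5 in KD9, and Mir7649 at 0 against 16.2 and 11.6. Gm44341, an miRNA gene, was at 41.0 in the control and listed at 0 in both KD9 columns. The pseudogene Hist1h2al, which overlaps it on the other strand, was at 20.7 against 0 and 1.10. Gm11702 was at 31.1 and listed at 0 in both KD9 columns.

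Ribosomal protein pseudogenes were among the larger changes of abundant entries. Rps26-ps1 was at 221 TPM against 18.1 and 17.6 (log2 fold change -3.62) and Rps2-ps10 at 166 against 9.63 and 11.9 (-3.94), whereas Rpsa-ps10 was higher at 385 against 880 and 878 (1.19). Their parent genes were not called, Rps26 at 1364 against 1504 and 1386, Rps2 at 2087 against 2552 and 2517, and Rpsa at 1634 against 1627 and 1537. Of the 6 most abundant entries called higher, 3 (Gm27505, Gm28006 and Gm27533) lie inside Neat1, the RNA that builds paraspeckles. Neat1 itself was called higher, at 18.4 against 37.8 and 38.7 (1.05).

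In 6 genes of mean TPM 5 or more the KD9 columns differed most. Gm17720 (3.05 and 0), Hist1h2al (0 and 1.10), Gm45660 (0 and 3.08), Gm27343 (7.83 and 0), Gm44126 (25.9 and 3.26) and Gm25965 (7.96 and 1.00) were at these TPM values in columns 1 and 2. The first 3 were nonetheless lower than the control in both columns. For the last 3 the direction depended on the column.

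KD4 and KD9 share the control column, so a common shift can come from the control alone, and values are given side by side only. Of the 151 genes called higher in KD9, 69 were also called higher in KD4 and 9 were called lower there. Of the 177 called lower in KD9, 108 were called lower in KD4 and 0 higher. Among protein-coding genes, 33 of the 92 called higher and 14 of the 106 called lower had a KD4 value within 1.5-fold of the control. The shares of all genes called in KD4, or within 1.5-fold there, are not given here. How far the lines agree is therefore not read from these counts.

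The acute phase list belonged to the genes in which KD4 lay near or below the control, whose median log2 fold changes were -0.52 there and 1.11 in KD9. Lcn2 was at a log2 fold change of -0.05 in KD4 against 3.45 in KD9, Cp at -0.31 against 3.07 and Ndufa4l2 at -0.41 against 2.89. In contrast, Lefty1 was at -2.40 in KD4 against -2.80 in KD9, Stra8 at -3.03 against -2.45, Prdm14 at 1.35 against 1.35 and Wnt7b at 2.93 against 1.80. The fibroblast total was 3109 and 3099 in KD4 against 7168 and 7066 in KD9, which stands beside each of these differences, and its part in them was not tested.

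The chromosomes had similar medians. The median log2 fold change of the 19 autosomes and the X chromosome lay between -0.13 and 0.03 in either column, and over 210 windows of 10 Mb with 20 or more genes between -0.32 and 0.16. Chromosome 17 had the highest value, 0.03 in the first column, and chromosome 12 the lowest, -0.13 in the second.

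**Figure D5:**
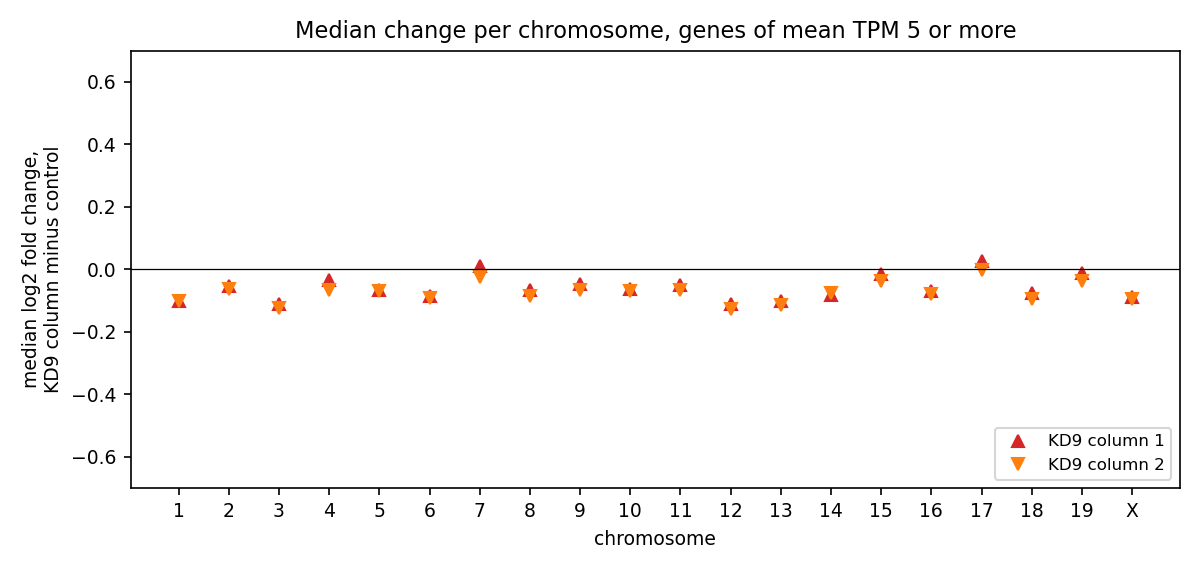
Median log2 fold change of the genes of mean TPM 5 or more on each autosome and X (y axis) in KD9 columns 1 and 2 against the control. The values lie between -0.13 and 0.03, and the line marks 0.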

How the data were processed

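RNA-seq was measured in E3 mouse ESCs, with 1 labelled sample each for the empty-vector control, KD4 and KD9. The authors deposited TPM values, made from reads trimmed by Trim Galore, mapped to mm10 by HISAT2 and, where they mapped uniquely, counted per gene by featureCounts, the mapping and counting at default settings. Versions and the annotation used are not given in the sources used here, and the methods name DESeq2 for the authors' own differential genes. Each column sums to 1000000, and TPM keeps no depth, so library depth is unknown and no counting interval is given.

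The 2 KD9 columns were treated as repeat measurements of 1 sample, and 1 column of per-sample values, a control without a labelled sample, was not used (3 of its values were seen when the table was first opened). Differences were taken as log2(TPM + 0.1) in each KD9 column minus the control column and averaged, which understates changes of low genes. A call needs more than 2-fold in both columns. The mean TPM filters (5, and 0.5 for lists) average the columns of a line first. KD9 and the control were compared without a statistical test. The code that applies the fold rule was tested on simulated data. 24 rows carry a date in place of a gene name and were not matched to genes, and 800 rows were at 0 in every column used.

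The members and the 35 gene lists were chosen with earlier results of these data known. Named genes are the Usp17l targets, the 12 largest calls and the 6 most abundant calls in each direction, up to 6 called or else 4 abundant members per list, the 6 genes whose columns differ most, and up to 5 per direction with opposite calls in KD4. Added after the values were seen were 25 protein-coding calls per direction, 2 lists (acute phase and complement, further hypoxia-inducible), and other named genes. Some genes that these rules name are not reported here. Positions and biotypes are from GENCODE M21 on mm10, promoters from RefSeq on GRCm38.p6. Alternatives were other pseudocounts, folds, filters, a rescaling by median ratios and each column alone. Python 3.11.15, pandas 2.3.3 and numpy 2.4.6 were used.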

Additional observations from a re-analysis of the deposited data

Results flagged for a closer look

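Among genes of mean TPM 5 or more, 9 were more than 2-fold higher in both KD9 columns and more than 2-fold lower in both KD4 columns. The lines share the control column and each is 1 labelled sample, so the difference was not tested. The log2 values of KD9 minus KD4 were 5.22 for Mmp3, 5.01 for Lum and 4.04 for Dcn, matrix genes of fibroblasts. They were 3.66 for Medag and 3.79 for Gm20488, which overlaps Medag on the same strand and is not a separate observation. The secreted proteins Il6 and C1ra differed by 3.57 and 3.41, the retinoic acid carrier Crabp2 by 2.58 and the pseudogene Gm8810 by 2.46. The summed TPM of 29 fibroblast genes was 7168 and 7066 in KD9 and 3109 and 3099 in KD4, and its part in these differences was not tested.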

How the results depend on the processing

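The limits are the single control column, the single labelled sample of KD9 and an unknown depth, which weakens every value of low TPM. The counts of calls moved with the threshold. At a mean TPM of 5 or more, 446 genes were higher and 597 lower over 1.5-fold, 53 and 57 over 3-fold, and 48 and 50 at a mean TPM of 20 or more. At 0.5 or more, the counts were 1278 and 1715 over 1.5-fold, 292 and 322 over 3-fold, 289 and 403 with a pseudocount of 1, 303 and 419 once Riken, Gm-number and pseudogene-like names were left out, and 1187 and 1890 with no filter. From 1 column alone, 1215 to 1241 genes of this filter were lower. The other settings tried kept these counts within 1.5 times. No paired analysis was possible because 1 control column maps to a labelled sample (the other was not used) and the KD9 columns map to no separate samples.

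List medians moved where lists hold low genes. Pseudocounts of 1 and then 0.5 gave -0.87 and -1.21 for Usp17l genes, -1.21 and -1.55 for Zscan4, -1.03 and -1.32 for other 2C genes, and -0.40 and -0.45 for Y-linked genes; with 1 they were -0.97 for primitive endoderm, -0.16 for Nodal and BMP and -0.50 for contractile genes. At a mean TPM of 5 or more, other 2C genes turned to 1.12, since Pramef12 alone remains, and the medians were -0.29 for formative, -0.68 for streak and neural, -0.81 for primitive endoderm, -0.59 for trophectoderm, -0.042 for FGF-ERK, 0.63 for proteoglycans, -0.49 for contractile, 0.44 for chemokines, -0.41 for imprinted, -0.13 for DNA methylation, -0.20 for X inactivation and 1.48 for acute phase genes.

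Rescaling by median ratios adds 0.06 and 0.07 to the KD9 columns, and the medians became 0.018 for core pluripotency, 0.51 for naive, -1 for primitive endoderm, -0.14 for Nodal and BMP, -0.028 for FGF-ERK, -0.20 for Wnt, -0.11 for fibroblast, -0.50 for collagen, 0.091 for proteoglycan, 0.092 for metalloprotease, -0.49 for contractile, 0.47 for chemokine, -0.23 for interferon-stimulated, 0.071 for MHC class I, -0.12 for imprinted, -0.11 for DNA methylation, 0.040 for Polycomb, -0.11 for integrated stress response, 0.24 for p53, 0.14 for immediate early, 0.074 for antioxidant, 0.30 for glycolysis, 0.61 for further hypoxia-inducible, -0.0027 for proteasome, 0.34 for mitochondrially encoded, -0.069 for housekeeping and -0.43 for Y-linked genes. The sign of the core pluripotency and Polycomb medians thus follows the scaling. The chromosome medians then ran from -0.063 to 0.081. From 1 column alone, medians ranged from -0.083 to -0.026 for core pluripotency, -0.28 to -0.15 for Nodal and BMP, -0.14 to -0.049 for FGF-ERK, -0.50 to -0.43 for Y-linked, -0.072 to -0.044 for X inactivation, 1.13 to 1.27 for acute phase and 0.44 to 0.50 for further hypoxia-inducible genes.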

Other observations

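Genes of stratified epithelia, picked after their values were seen, were called in both directions in KD9. Sprr2k, a cornified envelope precursor, had 37.3 TPM in the control and 7.75 and 8.32 in KD9, and Lce1h, a late envelope protein, was at 12.6 against 1.28 and 1.71. Crct1, from the same stretch of chromosome 3, was higher at 3.82 against 10.4 and 11.3. The keratins Krt42 and Krt17, neighbours on chromosome 11, were at 6.52 against 17.01 and 16.4 and at 3.14 against 8.38 and 8.39. Anxa8, an annexin, was at 5.44 against 19.5 and 18.6.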
